A study of Mus musculus with 816 samples.

Results

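Cultured mouse microglia that received nicotine alone, at 1000 uM for 24 h, form 1 condition of a stimulus panel, and they were compared with cultures that received no stimulus for the same 24 h. The members were taken from the treatment and duration labels, with the plate and well type of each culture read from the header rows of the deposited table. They are 8 of the 816 samples of the series, set against 40 untreated cultures. All cultures of this comparison were primary microglia from neonatal mice, bought in lots and cultured on poly-lysine in 96-well plates, and the stimulus was added in fresh medium 4 days later. RNA was amplified from wells that had been barcoded and pooled, and the libraries read the 3′ ends of transcripts. The labels name no animal, so the cultures are separate wells of shared lots, and the p-values measure the spread between wells.

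Nicotine is the tobacco alkaloid that opens nicotinic acetylcholine receptors, cation channels built from alpha and beta subunits. In macrophages and microglia the receptor made of the Chrna7 subunit is best known for its part in the cholinergic anti-inflammatory pathway, in which acetylcholine from nerves lowers the release of Tnf. Microglia are the resident macrophages of the brain, and they respond to many transmitters and immune signals.

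The 8 nicotine cultures lay on 3 plates. Plate 1 held 3 of them beside 6 untreated cultures, plate 2 held 3 beside 3, and plate 3 held 2 (cultures 7 and 8) beside 9. Plates 1 and 2 were seeded from 1 lot of cells and plate 3 from another. On each plate the nicotine wells were neighbours in 1 row, in the middle of plate 1, on the top edge of plate 2, and in the middle and on the right edge of plate 3. Depth was inferred from the steps between low values, each worth 1 read, as about 1.39 to 7.78 M reads in the nicotine cultures (median 3.14 M) and 1.09 to 15 M in the untreated ones (median 5.36 M). Between 8160 and 9383 genes lay above 5 CPM (counts scaled to a common total of mapped reads) in the nicotine cultures and between 8096 and 9466 in the untreated ones.

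The label of the cells was checked against 19 genes of homeostatic microglia. Csf1r, the receptor that microglia need to survive, lay at 3195 to 6089 CPM in the nicotine cultures and Cx3cr1, the fractalkine receptor, at 336 to 640. Tmem119 and P2ry12, which mark microglia in the intact brain, were low with and without nicotine. Tmem119 reached 9.64 CPM with nicotine and 64.7 without, and P2ry12 reached 34.1 and 12.8. Lists of 4 to 9 markers for neutrophils, monocytes, lymphocytes, astrocytes, oligodendrocytes, neurons, endothelial cells and fibroblasts were mostly below the filter. None of the 4 monocyte and 8 lymphocyte markers could be tested, nor more than 3 in any other list, and none of those tested was called (limma), with 1 gene, Aldoc, at an unadjusted p under 0.05.

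Nicotinic receptor transcripts were low or listed at 0. Of the 16 subunit genes in the table, Chrnb2 was the only one above the filter, at 0 to 20.4 CPM with nicotine (median 4.85) and 0 to 11.4 in the untreated cultures of the same plates (median 1.35), and the groups overlapped (log2 fold change 1.37 ± 0.82, limma adjusted p = 0.448). Chrna7, Chrna4 and Chrna6 were listed at 0 in every culture of both groups. These are 3′-end libraries, and a transcript listed at 0 was below the depth of the library rather than shown to be missing. Of 19 other cholinergic genes 3 were tested, the muscarinic receptor gene Chrm1 and the choline transporter-like genes Slc44a1 and Slc44a2. None of the 3 passed (limma), also none at an unadjusted p under 0.05, and none is an enzyme of acetylcholine synthesis or breakdown.

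Values were compared on the log2(CPM + 1) scale with plate and well type as covariates. A log2 fold change is nicotine minus untreated on that scale, is given with its standard error (SE), rests on 8 and 40 cultures, and comes out too small for genes at low values. A gene was called when its adjusted p (limma, Benjamini-Hochberg over all genes tested) was under 0.05 and its log2 fold change was at least 1 in either direction. Because plate is a covariate, the estimate rests mainly on the 18 untreated cultures of the 3 shared plates, and these are the untreated cultures whose values are printed below unless all 40 are named. Several named genes, listed at the end, lost their call when only these untreated cultures were used.

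Of 11608 genes tested, 214 were called (1.84%), with 91 higher (0.784%) and 123 lower (1.06%). With the values centred on each culture's median, 110 were higher and 97 lower, so the balance of rises and falls depends on the scaling. Without nicotine culture 7 the calls were 76 higher and 49 lower, and without plate 1 there were 96 in all. The adjusted p alone was under 0.05 for 414 genes. The median log2 fold change over all genes tested was −0.07. The rises were the steeper changes, since 22 genes rose by a log2 fold change of 2 or more and 2 fell by that much. The difference between the group means kept its direction on all 3 plates for 208 of the 214 genes, 90 of those that rose and 118 of those that fell. The 214 genes were called on these same cultures, which favours such agreement. In 11 called genes the 8 nicotine values lay wholly apart from all 40 untreated values, against 12 (0.103%) of all genes tested.

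**Figure D1:**
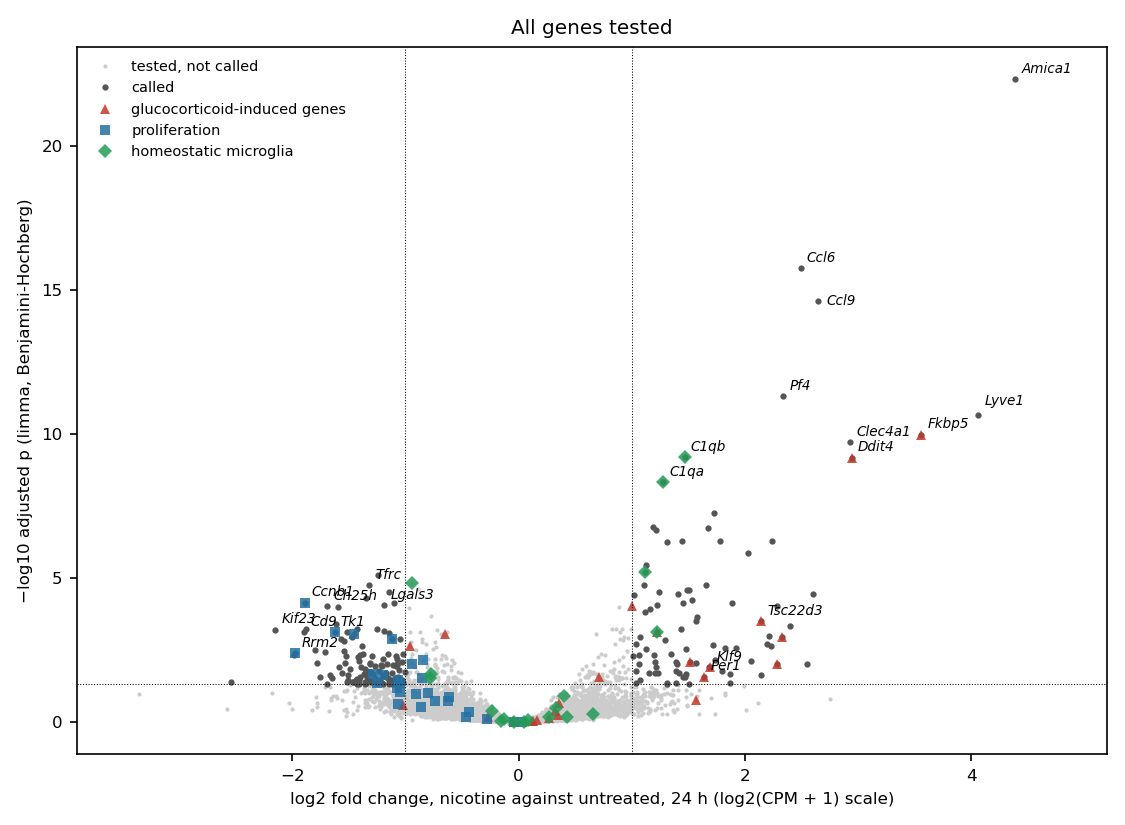
Log2 fold change of each gene tested (x axis, nicotine against untreated at 24 h, log2(CPM + 1) scale) against −log10 of its limma adjusted p (y axis), with dotted lines at the limits of a call and 3 gene lists in colour, of which the glucocorticoid-induced list was written after the values were seen. Amica1, with a log2 fold change of 4.39, stood farthest from the rest, and no fall was as steep as the steepest rises.

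The steepest rise belonged to Amica1, which RefSeq names Jaml and which encodes a junctional adhesion molecule of leukocytes. It lay at 14.7 to 108 CPM in the nicotine cultures (median 64.8) and at 0 to 3.41 in the untreated ones (median 0.304). Every nicotine culture was above every untreated culture, although the pair on plate 3, at 14.7 and 16.5 CPM, was lower than the other 6. The log2 fold change was 4.39 ± 0.17 (limma adjusted p = 4.69e-23).

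Fkbp5, a co-chaperone of Hsp90 that lowers the affinity of the glucocorticoid receptor for its hormone, was next among the genes above 100 CPM. It lay at 102 to 195 CPM with nicotine (median 174) and at 1.84 to 31.4 without (median 14.1). The groups did not overlap on any plate, and the log2 fold change was 3.43 on plate 1, 3.27 on plate 2 and 3.44 on plate 3. In the fit it was 3.56 ± 0.32 (limma adjusted p = 1.04e-10).

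Fkbp5 is a textbook target of the glucocorticoid receptor, a nuclear receptor that binds DNA when its steroid ligand is present. A list of 30 genes known to be induced by glucocorticoids was therefore written after the values were seen, so its count is a description and no evidence of its own. Of its 25 members tested, 9 rose and none fell (limma), and its median log2 fold change was 0.36, against −0.07 over all genes. Between 5 and 11 members rose under the alternative settings, with 6 without culture 7 and 5 without plate 1. Between 0 and 2 members fell under those settings. The 9 were Fkbp5, Ddit4, Sult1a1, Thbd, Tsc22d3, Klf9, Per1, Dusp1 and Mertk.

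Tsc22d3, which encodes the leucine zipper protein GILZ, lay at 31.3 to 76.8 CPM with nicotine (median 58.8) and at 2.76 to 20.4 without (median 11). No nicotine culture fell within the untreated range, and the log2 fold change was 2.14 ± 0.38 (limma adjusted p = 0.00031). Ddit4, an inhibitor of mTORC1 signalling, lay at 2.69 to 29 CPM with nicotine and at 0 to 4.88 without, with the lowest nicotine values, 2.69 and 3.61, in the cultures of plate 3 (log2 fold change 2.94 ± 0.28, limma adjusted p = 6.53e-10).

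Klf9, a Krüppel-like transcription factor, showed how much the level of a gene could differ between plates. On plate 1 it lay at 168 to 322 CPM with nicotine and 63.5 to 157 without, and on plate 3 at 72.3 to 78.7 with nicotine and 5.82 to 29.2 without. The groups were apart on each plate but overlapped when the plates were joined, and the log2 fold change was 1.70 ± 0.42 (limma adjusted p = 0.0125). Per1, a repressor of the circadian clock, lay at 43.4 to 202 CPM with nicotine and at 0.918 to 56.2 without (1.64 ± 0.45, limma adjusted p = 0.0268). Dusp1, the phosphatase that switches off p38 and JNK kinases, lay at 51.4 to 186 CPM with nicotine and at 5.72 to 58.7 without (1.52 ± 0.36, limma adjusted p = 0.00858). Without culture 7 none of Klf9, Per1 and Dusp1 kept its call, nor did Per1 without culture 4. Per1 also lost its call with the untreated cultures of the shared plates alone.

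Other members of the same list did not pass. Sgk1, a kinase that glucocorticoids induce in many cells, lay at 84.3 to 432 CPM with nicotine and 90.3 to 434 without (0.35 ± 0.26, limma adjusted p = 0.582). In the comparison with CCL2 and CCL7 at 4 h given below, Sgk1 was called higher with nicotine (1.60 ± 0.32, limma adjusted p = 0.0393). The metallothionein gene Mt1 had a log2 fold change of −0.04 and the NF-kB inhibitor Nfkbia one of 0.32, and neither passed. Glul, glutamine synthetase, was just under the limit of fold change at 0.9995 ± 0.16 (limma adjusted p = 9.11e-05), with 306 to 510 CPM in the nicotine cultures and no untreated culture above 292. Anxa1 and Rgs2 had negative values with adjusted p under 0.05, at −0.65 and −0.96, and were not called. Nr3c1, the gene of the glucocorticoid receptor itself, lay at 20.9 to 53.1 CPM with nicotine and 33 to 68.8 without (−0.73 ± 0.19, limma adjusted p = 0.0216), which is under the fold limit.

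**Figure D2:**
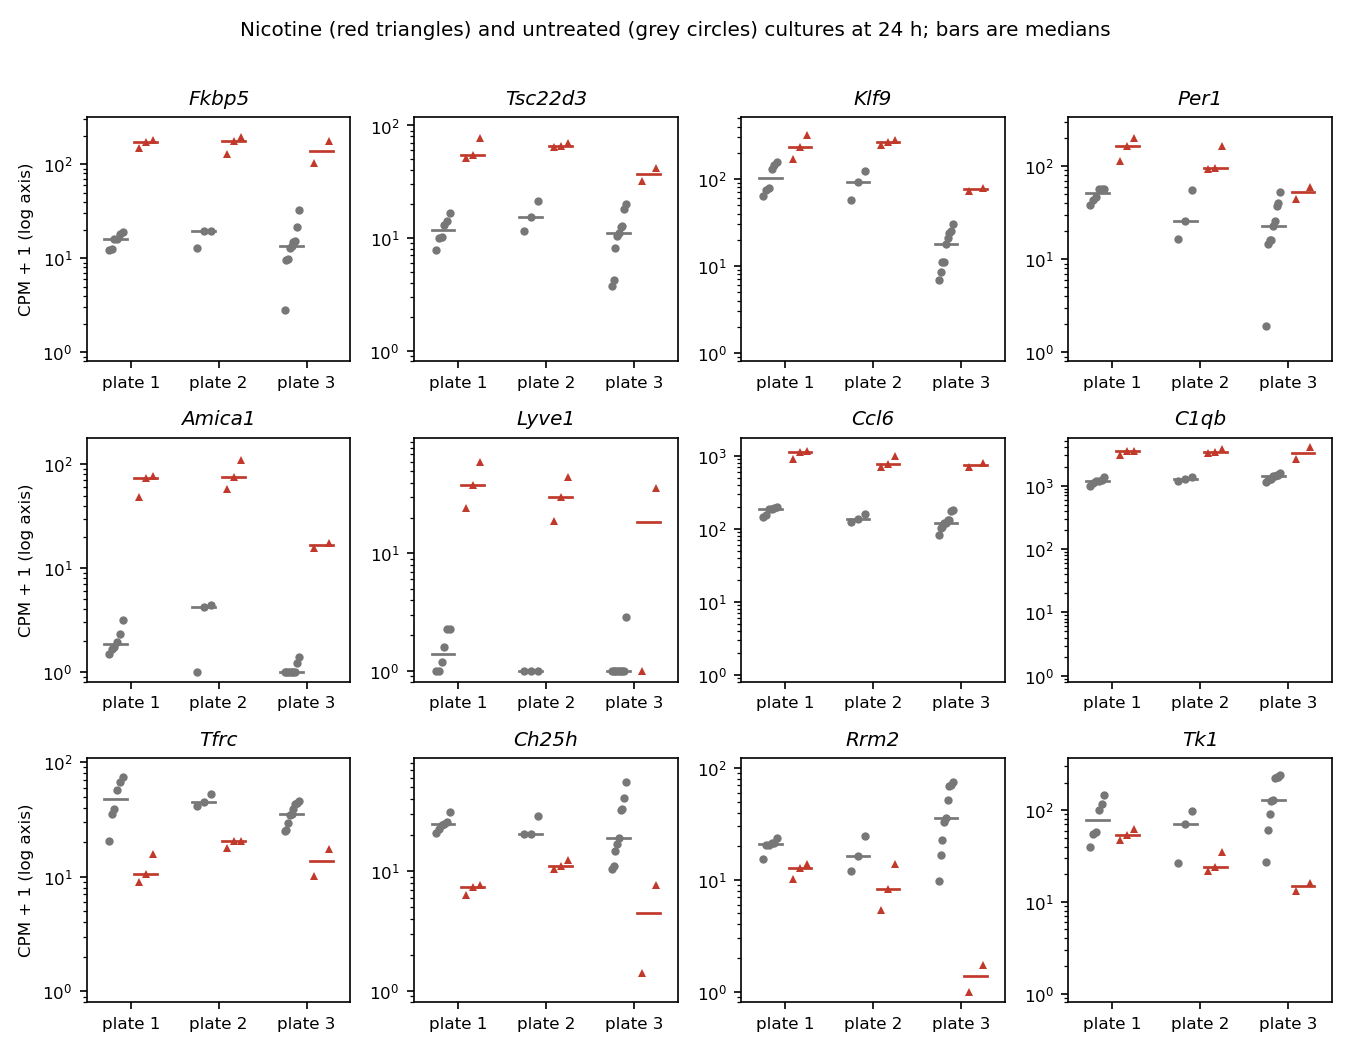
CPM + 1 of 12 genes on a log axis (y) in each nicotine culture (red triangles) and each untreated culture (grey circles) of the 3 shared plates (x), with bars at the medians. Fkbp5, Tsc22d3 and Klf9 are apart on each plate, Lyve1 is not on plate 3, where 1 of the 2 nicotine cultures is listed at 0, and the nicotine values of Rrm2 are lowest on plate 3.

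Promoters of called genes were read from the RefSeq table for GRCm38.p6, as 250 bases before and 50 after each start, for 165 of the 214 called genes, 70 that rose and 95 that fell. Both strands were searched for 6 short motifs. The AP-1 motif TGANTCA was present in 13.3% of the 90 promoters of risen genes, in 5.74% of the 122 promoters of fallen genes, in 5% of all 11080 promoters of tested genes and in 7.81% of all promoters in the table. The cAMP response element TGACGTCA was present in 2.22%, 2.46% and 3.18% of the first 3 sets. The antioxidant element TGACNNNGC was in 18.9%, 20.5% and 14.5%, the E-box TCACGTGA in 1.11%, 0.82% and 1.94%, the sterol element TCACNCCAC in 0%, 0.82% and 1.15%, and the NF-kB motif (GGG and CC with 5 bases between them) in 55.6%, 68.9% and 67.3%. A palindromic glucocorticoid response element (GNACA and TGTNC with 3 bases between them) was added after the values were seen, and it was in 0%, 0% and 0.217%. The window is short, and a match or its absence says only which letters it holds.

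Promoters of 4 risen genes are shown 5′ to 3′ on the strand of the gene, 2 with an AP-1 match, 1 with a cAMP response element and that of Fkbp5 with no match to the AP-1, cAMP or glucocorticoid motif, with the AP-1 or cAMP match in capitals. Fkbp5 lies at chr17:28486100-28486399 on the minus strand, Klf9 at chr19:23140976-23141275 on the plus strand, Dusp1 at chr17:26508423-26508722 on the minus strand and Ccl9, a chemokine described below, at chr11:83578587-83578886 on the minus strand.
Fkbp5: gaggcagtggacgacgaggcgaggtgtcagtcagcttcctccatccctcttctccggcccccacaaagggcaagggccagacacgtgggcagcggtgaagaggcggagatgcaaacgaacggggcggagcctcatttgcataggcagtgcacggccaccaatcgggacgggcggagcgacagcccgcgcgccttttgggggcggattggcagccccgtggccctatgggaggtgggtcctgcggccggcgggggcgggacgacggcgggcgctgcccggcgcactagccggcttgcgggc
Klf9: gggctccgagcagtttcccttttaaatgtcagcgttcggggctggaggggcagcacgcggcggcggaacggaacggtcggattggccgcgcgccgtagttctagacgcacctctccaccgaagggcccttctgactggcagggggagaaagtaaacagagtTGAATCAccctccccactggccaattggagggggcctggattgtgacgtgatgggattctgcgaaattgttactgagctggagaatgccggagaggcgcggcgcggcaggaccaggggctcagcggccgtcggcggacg
Dusp1: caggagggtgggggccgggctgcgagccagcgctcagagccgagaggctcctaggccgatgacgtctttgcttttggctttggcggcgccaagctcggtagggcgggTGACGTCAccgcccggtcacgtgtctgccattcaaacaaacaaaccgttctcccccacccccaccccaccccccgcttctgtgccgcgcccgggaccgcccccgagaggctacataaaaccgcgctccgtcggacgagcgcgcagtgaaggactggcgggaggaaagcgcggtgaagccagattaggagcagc
Ccl9: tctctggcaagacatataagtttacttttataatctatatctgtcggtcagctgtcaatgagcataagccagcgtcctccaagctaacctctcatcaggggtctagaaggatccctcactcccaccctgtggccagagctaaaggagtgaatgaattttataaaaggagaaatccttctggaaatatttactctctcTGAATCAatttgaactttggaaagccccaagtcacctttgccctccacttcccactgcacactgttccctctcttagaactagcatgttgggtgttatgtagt

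Chemokines of the CC family that attract myeloid cells were among the most even rises. Ccl6 lay at 700.3 CPM or more in every nicotine culture (median 840.0) and at no more than 196 in any untreated culture (median 140), so the groups were far apart. Its log2 fold change was 2.49 ± 0.15 in the fit (limma adjusted p = 1.73e-16) and 2.59, 2.54 and 2.59 on plates 1, 2 and 3. Ccl9 lay at 219 to 505 CPM with nicotine (median 357) and at 33.8 to 88.5 without (median 51.4), again with no overlap (2.64 ± 0.17, limma adjusted p = 2.35e-15).

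Several surface receptors also rose. Clec4a1, a C-type lectin receptor, lay at 345 to 1332 CPM with nicotine (median 601) and at 21.7 to 280 without (median 88.3), and no nicotine culture fell within the untreated range (2.93 ± 0.27, limma adjusted p = 1.93e-10). Cd14, the co-receptor for LPS, lay at 130 to 633 CPM with nicotine and 34 to 256 without (1.20 ± 0.27, limma adjusted p = 0.00482), and it was the 1 gene called among 19 tested scavenger, Fc and pattern receptors, whose median was 0.17. The formyl peptide receptor genes Fpr1 (2.23) and Fpr2 (1.45) also rose. So did Trem1 (2.24), which amplifies inflammatory signals, and the ectoenzyme gene Cd38 (2.21), and these 4 were named after their values were seen. Cd14, Fpr1 and Cd38 lost their calls without plate 1, and Trem1 was low, at 2.01 to 19.1 CPM with nicotine.

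Of 5 markers of perivascular macrophages, which sit along brain vessels, 4 were tested and 3 rose, or 2 without plate 1. Lyve1, a hyaluronan receptor, lay at 18 to 59.5 CPM in nicotine cultures 1 to 7 and was listed at 0 in culture 8, and no untreated culture was above 1.89 (4.06 ± 0.34, limma adjusted p = 2.26e-11). Pf4, the chemokine platelet factor 4, lay at 346 to 1075 CPM with nicotine (median 906) and 53.7 to 244 without (median 150), with no overlap among these cultures, while the highest of all 40 untreated cultures was at 359 (2.34 ± 0.19, limma adjusted p = 4.89e-12). F13a1, the A subunit of coagulation factor XIII, lay at 8.43 to 34.4 CPM with nicotine and 0 to 8.14 without (2.28 ± 0.38, limma adjusted p = 9.39e-05).

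The remaining markers of that list did not pass. Mrc1, the mannose receptor, lay at 15.7 to 293 CPM with nicotine and 10.6 to 179 without (0.32 ± 0.30, limma adjusted p = 0.675). Cd163, a haemoglobin scavenger receptor, was below the filter, at 0 to 5.93 CPM with nicotine and 0 to 2.64 in all 40 untreated cultures. The 5 markers together summed to 371 to 1456 CPM with nicotine and 118 to 421 CPM in the 40 untreated cultures. More cells of a type and more RNA per cell cannot be told apart in bulk cultures, and the part of such cells in these rises was not tested.

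Genes of the complement protein C1q rose as well. C1qb lay at 2616 to 4042 CPM with nicotine (median 3439) and 983 to 1602 without (median 1256), with no overlap on the shared plates, although the highest of all 40 untreated cultures was at 4192 (1.47 ± 0.14, limma adjusted p = 6.22e-10). C1qa (1.28 ± 0.13) and C1qc (1.12 ± 0.16), which encode the other chains of C1q, the start of the classical complement pathway, also rose. C1qc varied between plates, at 4584 to 5075 CPM with nicotine on plate 1 and 1356 to 1685 on plate 3, where untreated cultures lay at 696 to 1172, and it lost its call without plate 2. With Mertk, a receptor for the uptake of dying cells (1.22 ± 0.23), they were the 4 called genes of 18 tested homeostatic genes, whose median was 0.18. Gas6, the ligand of Mertk, lay at 214 to 319 CPM with nicotine and 306 to 1020.1 without (−0.94 ± 0.14, limma adjusted p = 1.48e-05), and Fcrls (−0.79) and Olfml3 (−0.78) also had adjusted p under 0.05. These 3 were under the fold limit and were not called.

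Further steep rises came from genes of varied roles. Jdp2, a repressor of the AP-1 family, lay at 7.59 to 50.6 CPM with nicotine and 0.802 to 24.7 without (2.60 ± 0.40, limma adjusted p = 3.64e-05). Thbs1, the matrix protein thrombospondin 1, lay at 22.0 to 121 CPM with nicotine and 0 to 63.9 without (2.55 ± 0.61, limma adjusted p = 0.00974), and the cultures of plate 3, at 22.0 and 38.9, were the lowest. Thbs1 lost its call without plate 1, without plate 2, and with the untreated cultures of the shared plates alone. Sult1a1, a sulfotransferase of phenols and drugs, lay at 34.7 to 61.3 CPM in cultures 1 to 6 and at 7.57 and 0 on plate 3, against 0 to 12.7 without nicotine (2.33 ± 0.46, limma adjusted p = 0.00112). Asb18, an ankyrin repeat protein, lay at 5.06 to 24.0 CPM with nicotine and 0 to 9.82 without (2.40 ± 0.44, limma adjusted p = 0.000482).

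Genes of cell division held the most falls of any list. Of 27 tested genes of a proliferation list, 10 fell and none rose (limma), and the median log2 fold change was −0.94. The 10 were Rrm2, Ccnb1, Tk1, Ube2c, Aurkb, Mcm3, Ccna2, Pcna, Top2a and Plk1. Rrm2, the small subunit of ribonucleotide reductase, lay at 0 to 12.9 CPM with nicotine (median 8.18) and at 8.71 to 74.4 without (median 21), and its log2 fold change was −1.98 ± 0.43 (limma adjusted p = 0.00418). Ccnb1, the cyclin of entry into mitosis, lay at 0 to 16.7 CPM with nicotine and 2.70 to 65.5 without (−1.88 ± 0.30, limma adjusted p = 7.22e-05). Tk1, thymidine kinase, lay at 12.3 to 61.5 CPM with nicotine and 25.9 to 243 without (−1.63 ± 0.31, limma adjusted p = 0.000746). Pcna, the sliding clamp of DNA replication, lay at 113 to 969 CPM with nicotine and 335 to 1499 without (−1.11 ± 0.22, limma adjusted p = 0.00131).

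Outside that list, Kif23, a kinesin of cytokinesis, had the steepest fall among genes with a mean of at least 10 CPM, at 0 to 12.3 CPM with nicotine and 1.77 to 59.6 without (−2.15 ± 0.40, limma adjusted p = 0.000618). Bard1, the partner of Brca1, fell by 1.78, Nuf2, of the kinetochore, by 1.76, and Cdca8, of the chromosomal passenger complex, by 1.67 on the log2 scale. The replication genes Prim1 (−1.59), Pola1 (−1.54) and Chaf1b (−1.54), named after their values were seen, also fell. Of these 6 genes besides Kif23, each lost its call without culture 7, as did Nuf2 without culture 6 and Cdca8 without culture 8.

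The median fall of the division genes was not the same on each plate, and their calls rested in part on plate 3. No division gene named here passed the test for a difference between plates that is given below. The median over the 27 genes was −0.52 on plate 1, −0.38 on plate 2 and −2.11 on plate 3, where all 27 were below 0. In summed CPM, the 27 genes came to 1406 to 1581 with nicotine and 2053 to 2840 without on plate 1. They came to 1265 to 1499 and 1406 to 2337 on plate 2, and to 372 to 705 and 844 to 3844 on plate 3. The 2 nicotine cultures of plate 3 were thus the lowest of the 8, and on plates 1 and 3 the groups were apart while on plate 2 they overlapped. Without culture 7 the number of called members dropped from 10 to 3, without culture 8 to 8, and without plate 3 to 5, with medians of −0.69, −1.04 and −0.71. Cdca8 had log2 fold changes of −0.12, −0.47 and −3.81 on plates 1, 2 and 3.

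Iron transport genes were among the other falls. Tfrc, the transferrin receptor, lay at 8.05 to 19.7 CPM with nicotine (median 15.5) and 19.6 to 73.4 without (median 39.5), with the groups apart on each plate (−1.32 ± 0.20, limma adjusted p = 1.79e-05). Slc11a2, the iron transporter DMT1, fell by 1.11 ± 0.27 on the log2 scale (limma adjusted p = 0.0104) and lost its call without culture 7. They were the 2 called genes of 11 tested metallothionein and iron genes, whose median was −0.08. Ch25h, which makes 25-hydroxycholesterol, lay at 0.401 to 11.3 CPM with nicotine (median 6.64) and 9.39 to 54.8 without (median 22.4), and the groups touched only across plates (−1.69 ± 0.28, limma adjusted p = 9.32e-05). Kcnn4, a calcium-activated potassium channel, lay at 16.9 to 56.3 CPM with nicotine and 44.5 to 204 without (−1.61 ± 0.29, limma adjusted p = 0.000396).

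Of 17 tested genes of disease-associated microglia, a state known from mouse models of neurodegeneration, 1 rose, the chemokine Ccl6, and 3 fell, with a median of −0.42. Cd9, a tetraspanin, lay at 465 to 760 CPM in nicotine cultures 1 to 6 and at 15.8 and 47.8 in the cultures of plate 3, while untreated cultures lay at 1235 to 2229 on plates 1 and 2 and at 61.5 to 522 on plate 3 (−1.90 ± 0.36, limma adjusted p = 0.000746). The groups were apart on each of the 3 plates. Lgals3, galectin 3, fell by 1.19 ± 0.19 (limma adjusted p = 8.67e-05) and Itgax, the integrin CD11c, by 1.07 ± 0.26 (limma adjusted p = 0.00972), a call it lost without culture 7. A further 5 members, Lpl, Igf1, Clec7a, Fabp5 and Gpnmb, had values of −0.97 to −0.42 with adjusted p under 0.05, and Apoe, the lipid carrier, had 0.62 (limma adjusted p = 0.0242).

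Few genes of the list of inflammatory cytokines and enzymes passed. Of 17 tested cytokine and enzyme genes 1 rose, the inflammasome sensor Nlrp3 (1.39 ± 0.41, limma adjusted p = 0.0454), and 1 fell, the chemokine Ccl4 (−1.60 ± 0.26, limma adjusted p = 9.99e-05), with a median of 0.14. Nlrp3 kept its call under 8 of 25 alternative settings, and lost it without any 1 of cultures 1, 2, 3, 6, 7 and 8. Tnf, the cytokine that the cholinergic pathway is known to restrain, lay at 20.3 to 43.4 CPM with nicotine (median 26.7) and 26.2 to 122 without (median 58.3). Its log2 fold change of −0.86 ± 0.25 had a limma adjusted p of 0.0404 and was under the fold limit. Il1b lay at 1.37 to 10.3 CPM with nicotine and 0 to 19.3 without (0.53 ± 0.45, limma adjusted p = 0.640), and Il6 was below the filter, with no nicotine culture above 0.401.

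Clock genes were looked at after the values were seen. Dbp, a transcription factor whose level follows the clock, was listed at 0 in 5 nicotine cultures and reached 1.25 CPM, against a median of 8.87 and a highest value of 31.1 in the untreated cultures (−2.54 ± 0.74, limma adjusted p = 0.0423). It kept its call under 11 of 25 alternative settings and lost it without any 1 nicotine culture other than culture 2. Of 16 tested clock genes Per1 rose, Dbp and Bhlhe40, a repressor (−1.88 ± 0.35), fell, and the median was −0.34. The related factor Tef (−0.97, limma adjusted p = 0.0345) was under the fold limit, and the core genes Clock (0.03), Arntl (0.73) and Nr1d1 (−0.04) did not pass.

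**Figure D3:**
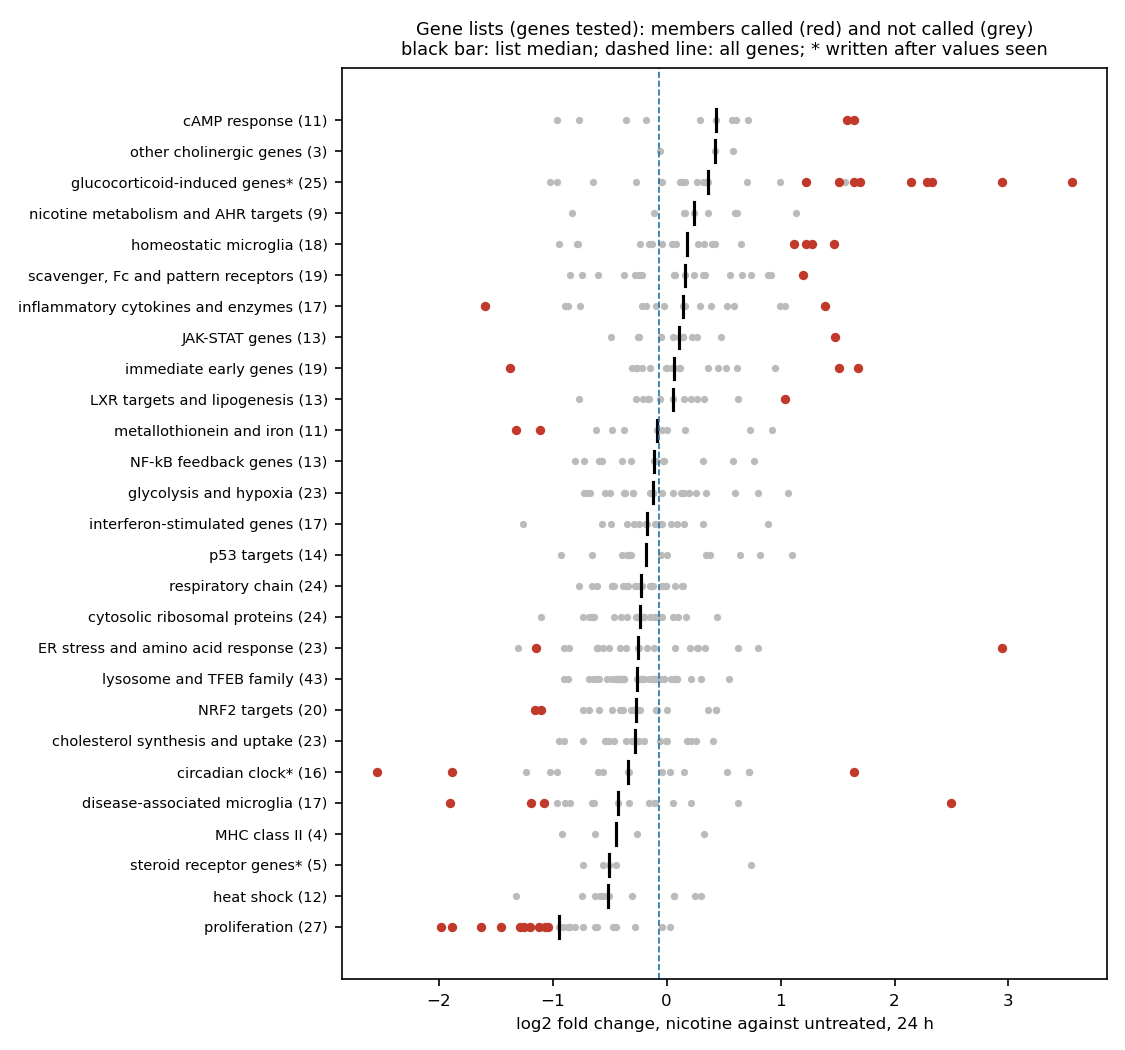
Log2 fold change (x axis, nicotine against untreated at 24 h) of the tested members of 27 gene lists, in red where called and grey where not, with a black bar at each list's median and a dashed line at the median of all genes. The proliferation list has the lowest median, −0.94, and the glucocorticoid-induced list, written after the values were seen, has 9 called members, all of them rises.

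Further lists held 1 to 3 called genes each. In 11 genes of the cAMP response Per1 and Pde3b, a phosphodiesterase (1.58 ± 0.27), rose, and the median was 0.44. In 19 immediate early genes Klf4 (1.68 ± 0.41) and Dusp1 rose and Egr2 (−1.38 ± 0.30) fell, with a median of 0.07. In 23 genes of endoplasmic reticulum stress and amino acid shortage Ddit4 rose and Mthfd2, of mitochondrial folate metabolism, fell (−1.14 ± 0.22), with a median of −0.25. Among 20 targets of NRF2, the regulator of the antioxidant response, Abcc1 (−1.15 ± 0.25) and Prdx1 (−1.10 ± 0.18) fell, and the median was −0.27. Socs2 (1.47 ± 0.40) was the 1 called gene of 13 JAK-STAT genes (median 0.11), and Abca1, the cholesterol exporter (1.04 ± 0.21), the 1 called gene of 13 LXR targets and lipogenic genes (median 0.06). Abcc1 and Socs2 lost their calls without culture 7, Socs2 also without culture 4 or 6, and Abca1 without culture 1 or 2.

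In 12 further lists no gene was called by limma at 24 h, and their counts at an unadjusted p under 0.05 can be read against the 15.4% of all genes tested (1784) that reached it. Of 43 lysosomal genes 16 had an unadjusted p under 0.05 (median −0.26), of 23 cholesterol genes 3 (median −0.28), of 23 glycolytic genes 6 (median −0.12), of 13 NF-kB feedback genes 5 (median −0.11), of 17 interferon-stimulated genes 2 (median −0.17) and of 12 heat shock genes 5 (median −0.51). Of 24 ribosomal protein genes 5 had an unadjusted p under 0.05 (median −0.23), of 24 respiratory chain genes 4 (median −0.22), of 14 p53 targets 3 (median −0.18) and of 9 genes of nicotine metabolism and aryl hydrocarbon receptor targets 2 (median 0.24). Of 4 MHC class II genes none did (median −0.44), and of 5 steroid receptor and chaperone genes, a list written after the values were seen, 4 did (median −0.50). The NRF2 targets Nqo1 (−0.73) and Hmox1 (0.43) missed the threshold. Among the falls were also 9 pseudogenes of Rps12, with log2 fold changes of −1.32 to −1.31, which share near-identical sequence, so reads cannot be placed on 1 of them with certainty.

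The named genes were also tested within plates, by a 2-sided exact permutation test on the 26 cultures of the shared plates, which exchanged the labels only inside a plate, over all 92400 arrangements. Of 100 named genes 68 had a Benjamini-Hochberg adjusted p under 0.05, among them 54 of the 57 called genes in the family. Many of these genes were chosen for their change in these same cultures, so the count restates that choice in part. Whether the nicotine effect differed between plates was tested by an interaction term, which passed for 7 of 10937 genes (0.064%).

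Against the other stimuli of the panel at 24 h, all of which share the untreated cultures, the nicotine values are a description. In 1 fit of 38 conditions, nicotine had the highest log2 fold change of any condition in 52 of the 91 risen genes and the lowest in 16 of the 123 fallen genes, against 3.6% and 1.5% of all 14208 genes of that fit. The risen and fallen genes were chosen by their nicotine values in these cultures, which favours such ranks. Fkbp5 had 3.37 with nicotine and at most 0.55, with valproic acid, in any other condition, and Amica1 had 4.83 and at most 0.94, with norepinephrine. Tsc22d3 had 2.08 against at most 0.60. Klf9, by contrast, had 1.58 with nicotine and 1.34 with GMCSF. Ccl6 held place 2 of the 38, behind GMCSF, while Clec4a1 held place 5 and Ccl9 place 7. Among the falls, Rrm2 held place 9 from the lowest and Ccnb1 place 8, with LPS at the low dose the lowest for both. Dbp was lowest with nicotine, at −2.89, but LPS at the high dose was close, at −2.81, and both had a median of 0 CPM.

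**Figure D4:**
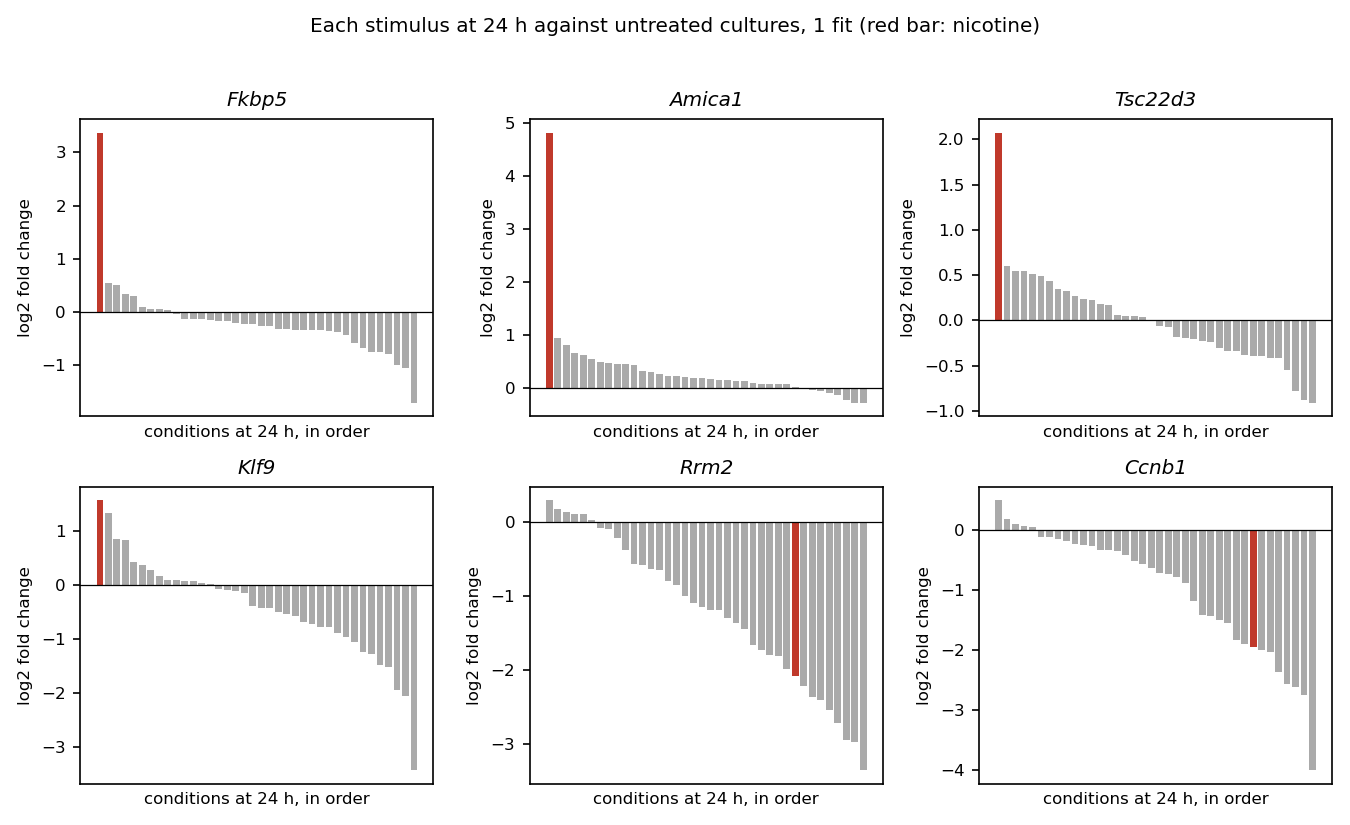
Log2 fold change of 6 genes (y axis, log2(CPM + 1) scale) in each of the 38 conditions at 24 h against the same untreated cultures, in 1 fit and in order of size (x axis), with nicotine as the red bar. Nicotine is highest for Fkbp5, Amica1, Tsc22d3 and Klf9, and other conditions are lower than nicotine for Rrm2 and Ccnb1.

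Cultures that received nicotine at 1000 uM for 4 h shared no well with those of 24 h, and they gave a separate reading of the same genes. No untreated culture of 4 h was used here. The 8 cultures were therefore compared with 7 that received CCL2 and 7 that received CCL7 for 4 h, each at 0.0001 ug/ul. Plate and well type were covariates, and any effect of those chemokines enters the difference. Of the 91 genes that rose at 24 h, 82 were tested, 61 had the same sign and 9 were called higher, where 0.311% of all genes were called higher. Their median was 0.78, against −0.16 over all genes. The 9 were Amica1, Fkbp5, Tsc22d3, Dusp1, Ddit4, Il15ra, B4galt1, Ms4a6b and Serinc3.

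Fkbp5 lay at 90.6 to 327 CPM after 4 h of nicotine and 4.96 to 25.1 with the chemokines, with no overlap (4.45 ± 0.40, limma adjusted p = 2.72e-05). Amica1 lay at 1.31 to 71.9 CPM and 0 to 2.04 (4.63 ± 0.64, limma adjusted p = 0.00331), Tsc22d3 at 29.7 to 200.1 and 0 to 24.8 (3.48 ± 0.53, limma adjusted p = 0.00646), and Dusp1 at 25.5 to 129 and 2.65 to 18.8 (3.08 ± 0.41, limma adjusted p = 0.00251). Klf9 (3.38, limma adjusted p = 0.0756) and Per1 (2.60, limma adjusted p = 0.132) lay above the chemokine cultures but missed the threshold. Among the chemokines and receptors of 24 h, Ccl6 (0.46 ± 0.31), Pf4 (−0.54 ± 0.35) and Clec4a1 (0.72 ± 0.45) were not called at 4 h. The receptor gene Il15ra was called (2.74 ± 0.54, limma adjusted p = 0.0343). Pf4 and Mrc1 were the 2 perivascular macrophage markers tested at 4 h, so Lyve1 and F13a1 have no value there. The 2 times were not tested against each other, since their controls differ.

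Of the 123 genes that fell at 24 h, 119 were tested at 4 h and 78 had the same sign, where 59.6% of all genes lay below 0. None was called by limma, and 18 of those with the same sign had an unadjusted p under 0.05 (limma). The share of all genes at that threshold is not given for 4 h, so the 18 has no background to be read against. Of 26 proliferation genes none was called at 4 h and none had an unadjusted p under 0.05, and their median was −0.25.

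**Figure D5:**
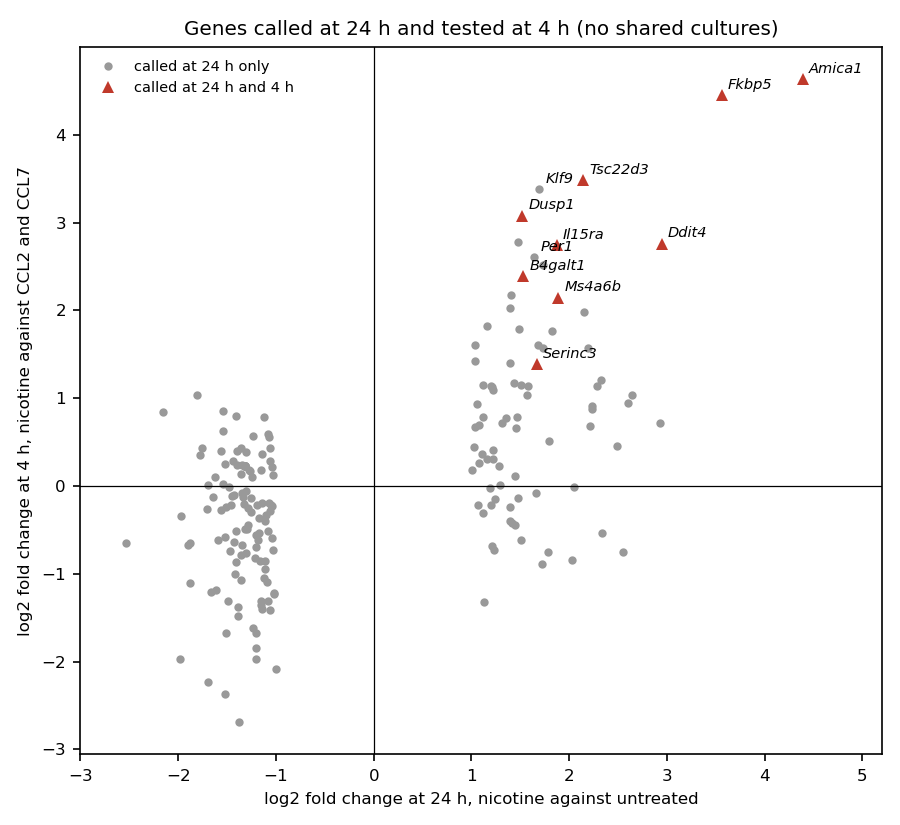
Log2 fold change of the genes called at 24 h (x axis, nicotine against untreated) and the same gene's log2 fold change at 4 h (y axis, nicotine against CCL2 and CCL7), with red triangles for genes called at both times. The 9 triangles are all rises, led by Amica1 and Fkbp5, and the genes that fell at 24 h lie on both sides of 0 at 4 h.

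Where nicotine was added to LPS for 4 h and compared with LPS alone, 56 of the 71 tested genes that rose at 24 h had the same sign (69.3% of all genes did) and 5 were higher, Per1, Dusp1, Tsc22d3, Slc43a2 and Gda, where 0.683% of all genes were (0.925% in either direction), while Fkbp5 had 1.29 ± 0.40 (limma adjusted p = 0.119). Of the 123 that fell, 95 were tested, 44 had the same sign (30.7% of all genes did) and 2, Akap2 and Ch25h, were lower. LPS was at the high dose, 0.0001 ug/ul, in both groups, and the label of the combination gives no dose of nicotine. Well position was not a covariate there, since it and nicotine cannot be told apart in those wells.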

How the data were processed

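Microglia cultures were profiled by 3′-end RNA sequencing. Per the labels and methods, transcripts of Ensembl build 81 were quantified with Salmon 0.7.1 and summed to genes. The authors deposited CPM without length correction and dropped cultures of low depth or few genes. Columns were matched to samples by library identifier. Of the 784 columns of the table, 411 were used and 373 were not used here. Reads could not be recovered as whole numbers, because too few low values were multiples of 1 read (tolerance 0.1 of a read), so no count test was run. The depths given are inferred from those steps.

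Genes above 5 CPM in at least 4 cultures were compared on log2(CPM + 1) with limma 3.58.1 in R 4.3.3, with plate and well type as covariates and Benjamini-Hochberg adjustment over all genes tested. Named genes were the 12 largest rises and 12 largest falls among called genes with a mean of at least 10 CPM in the higher group and 1 direction on every shared plate, all called list members, and a fixed set of receptor, cytokine and marker genes. Exact permutation tests ran in Python 3.11.15 with scipy 1.17.1. The scripts were tested on simulated data. Members and lists were chosen with earlier results of these data known, and the glucocorticoid, clock and steroid receptor lists and their motif after these values were seen. The alternatives tried were other covariates, normalisations, pseudocounts, filters and samples left out. Promoters came from RefSeq (GRCm38.p6). Cultures with CCL2 and CCL7 and with LPS were the controls at 4 h, and the other stimuli at 24 h entered 1 joint fit.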

Additional observations from a re-analysis of the deposited data

Results flagged for a closer look

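Among the named genes, single nicotine cultures stood apart from the other 7 by Dixon's test in 5 cases, and chance alone sets off this test in about 1 in 20 groups. The named genes include the 100 tested within plates, so at that rate this many cases can arise by chance. Culture 8, on plate 3, was the lowest in 4 of them. Lyve1 was listed at 0 CPM there, with the nearest culture at 18, and Ccnb1 at 0, with the nearest at 3.61. Ch25h lay at 0.401 CPM with the nearest at 5.34, and Ccna2 at 2.01 with the nearest at 19.5. Pde3b was highest in culture 7, also on plate 3, at 191 CPM, with the nearest at 92.0.

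The nicotine effect differed between the 3 plates by an interaction term for 7 genes (limma, Benjamini-Hochberg over 10937 genes). Srf, the serum response factor, had log2 fold changes of 0.26, 0.00 and −1.85 on plates 1, 2 and 3 (adjusted p = 0.00456). Tbcd, a tubulin chaperone, had 0.41, −0.27 and −3.67 (adjusted p = 0.00865), and was listed at 0 in both nicotine cultures of plate 3. Pcnt, of the centrosome, had 0.29, 1.24 and −1.80 (adjusted p = 0.0221), and Pnpt1, an RNA exonuclease of mitochondria and the 1 gene of the 7 that was called, had −0.67, −0.63 and −2.30 (adjusted p = 0.0344). The unnamed transcripts RP24-226L20.1 (−1.96, 1.84 and −0.36, adjusted p = 0.00865), 4833420G17Rik (0.20, 1.01 and −0.86, adjusted p = 0.0221) and Gm37138 (−0.66, 1.23 and −1.89, adjusted p = 0.046) were the others.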

How the results depend on the processing

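The count of 214 called genes at 24 h became 344 without covariates (206 higher, 138 lower), 353 with all 24 h conditions in 1 fit (129 and 224), 124 with a pseudocount of 5, 414 with no minimum fold change (168 and 246), 96 without plate 1 and 55 by a rank-sum test with Bonferroni correction (46 and 9). Leaving out 1 nicotine culture gave 125 to 214, the lowest without culture 7 (76 higher, 49 lower). Median centring gave 207 (110 higher, 97 lower) and quantile normalisation 227 (120 and 107), so the share of rises depends on the scaling, and the median of all genes moved from −0.07 to 0.000297 and −0.00771. The fit on the untreated cultures of the nicotine pools alone, chosen after seeing the data, gave 187. At 4 h the 47 calls against the chemokines became 61 without covariates (25 higher, 36 lower) and 101 with a pseudocount of 5, and the 84 with LPS became 40 and 139. The 7 interaction calls became 0 with a pseudocount of 5 (limma, with 700 genes at an unadjusted p under 0.05). The cause was not tested. Of 64 named called genes, Amica1, Fkbp5, Tsc22d3, Clec4a1, Ccl6, Ccl9, Pf4 and Tfrc kept their call under all 25 alternatives, and Lyve1, Ddit4 and Trem1 under the 24, 22 and 18 in which they were tested. With the untreated cultures of the shared plates alone, Thbs1, Per1, Thbd, Socs2, Nlrp3, Slc11a2, Abcc1, Pcna, Mcm3, Aurkb, Ccna2 and Cdca8 lost their calls. Over all named genes, 259 values lost the call, 24 gained it and 2 changed sign, both of Serpinb9b, which had 0.28 without covariates and in the rank-sum test. No paired analysis was possible because the replicate numbers were given in accession order and the labels pair no cultures. Depths of 1.39 M reads and up in the nicotine cultures of 24 h limit genes of a few CPM. The lowest depth was 1.09 M in the untreated cultures and 1.01 M in the nicotine and CCL7 cultures of 4 h.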
